A study of Mus musculus with 9 samples.

Results

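The genes described here are the chemokines and their receptors, taken from the deposited table of mouse liver by gene symbol. Symbols taken were Ccl, Cxcl, Ccr, Cxcr or Ackr followed by a number and nothing more, together with Cx3cl1, Xcl1, Cx3cr1 and Xcr1. Symbols with a letter after the number, such as Ccl27a, were thus left out. They numbered 56 of the 34745 genes in the table, 34 ligands and 22 receptors, and of the receptors 4 are atypical ones that bind chemokines without the usual signal. Of the 56, 39 passed the filter on low counts and were tested. Measurements were made by sequencing messenger RNA from 9 liver samples of C57BL/6 mice aged 12 weeks, in 3 groups of 3. The labels name liver as the tissue and also hepatocyte as the cell type.

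Group WT NC holds animals labelled WT with the treatment NC, and what NC stands for is not given in the sources used here. Group WT CCl4 holds animals labelled WT that were given carbon tetrachloride (CCl4), a hepatotoxin whose reactive products kill liver cells and, on repeated dosing, scar the rodent liver. The third group holds animals labelled KO and given CCl4, and its libraries are called KO 72, KO 75 and KO 79 below. The dose in the labels was 0.25 ml per kg into the abdomen, diluted in olive oil, 2 times a week for 4 weeks. WT was read as the Tgfbr2f/f genotype of the series, a floxed gene for the type II TGF-beta receptor, and KO as Tgfbr2HKO. How HKO was made, and in which cells, is not given in the sources used here. No KO animal without CCl4 was analysed here, so the response to CCl4 could not be compared between genotypes by an interaction.

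Chemokines are small secreted proteins that guide white blood cells along a gradient by way of receptors coupled to G proteins. Inflammatory members are made on demand by damaged or stimulated cells and draw in monocytes, neutrophils or T cells, whereas homeostatic members are made all the time and hold or home cells in a tissue. In the injured liver, Ccl2 and its receptor Ccr2 are known for bringing in monocytes, the Cxcl1 and Cxcl2 group for neutrophils through Cxcr2, and Cxcl9 and Cxcl10 for T cells through Cxcr3.

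Total counts ran from 16447353 to 20373585 per library, and between 15932 and 17614 genes had a count. Tgfbr2 checked the labels: it stood at 31.5, 30.2 and 38.6 counts per 1000000 (CPM) in WT NC 1, 2 and 3, 127, 90.5 and 75.2 CPM in WT CCl4 11, 12 and 13, and 23.5, 69.9 and 28.3 CPM in KO 72, 75 and 79. KO 75 thus lay near the lowest WT CCl4 library, and Tgfbr2 was not called lower in KO against WT CCl4 with all libraries (log2 fold change -1.26 ± 0.39, SE, adjusted p = 0.0759). It was called once KO 75 was left out (-1.91, adjusted p = 0.0011, edgeR's quasi-likelihood test). KO results are therefore given with and without that library. CCl4 itself raised Tgfbr2 in WT (1.54 ± 0.39, adjusted p = 0.00971, same test). Against WT NC, Tgfbr2 in KO was not called lower with all libraries (0.28 ± 0.39, adjusted p = 0.624). Nor was it without KO 75 (-0.36, adjusted p = 0.308), so the level of Tgfbr2 does not by itself settle the KO label. Markers of hepatocytes were abundant in every library, with a summed level of 38624 to 109530 CPM over 8 genes, and markers of macrophages, neutrophils, endothelium and stellate cells were present too, so the libraries hold more than hepatocytes. All values below are listed in the library order just given.

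Many members lie in clusters (mm10). On chromosome 11, Ccl2, Ccl7, Ccl11, Ccl12, Ccl8 and Ccl1 span chr11:82035571-82305690 and Ccl5, Ccl9, Ccl6, Ccl3 and Ccl4 span chr11:83525778-83664683. On chromosome 5, Cxcl5, Cxcl3, Cxcl15, Cxcl1 and Cxcl2 span chr5:90759360-90905938 and Cxcl9, Cxcl10 and Cxcl11 span chr5:92321347-92365485. Ccl22, Cx3cl1 and Ccl17 span chr8:94745590-94812035, and the receptors Ccr9, Cxcr6, Xcr1, Ccr1, Ccr3 and Ccr2 lie together on chromosome 9.

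Printed next are 250 bases of sequence before the transcription start of 6 ligands, from RefSeq (GRCm38.p6). Cxcl1 and Cxcl2 share a cluster, as do Ccl3 and Ccl9, and their levels parted in the KO libraries. Cxcl10 was called lower there, and Cxcl12 went the other way under CCl4. Capitals mark any match on either strand to the binding motif of NF-kB (kB, by name), to the AP-1 motif TGANTCA, to the interferon-stimulated element, GAAA and GAAA with any 2 bases between, or to the TATA motif TATAAA. Each line gives the gene, its position and strand, then the sequence from 5′ to 3′.
Cxcl1 (chr5:90890995-90891244, plus strand): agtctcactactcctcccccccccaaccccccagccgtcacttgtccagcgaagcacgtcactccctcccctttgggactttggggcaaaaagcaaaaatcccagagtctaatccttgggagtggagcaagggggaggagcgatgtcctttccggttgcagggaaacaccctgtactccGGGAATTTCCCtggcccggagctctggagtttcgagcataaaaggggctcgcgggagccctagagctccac
Cxcl2 (chr5:90903649-90903898, plus strand): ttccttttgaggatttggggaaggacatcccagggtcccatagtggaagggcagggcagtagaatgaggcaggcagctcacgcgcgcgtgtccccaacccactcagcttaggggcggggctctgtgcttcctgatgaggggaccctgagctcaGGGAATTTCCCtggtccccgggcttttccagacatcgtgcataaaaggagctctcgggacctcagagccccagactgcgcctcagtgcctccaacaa
Cxcl10 (chr5:92348890-92349139, minus strand): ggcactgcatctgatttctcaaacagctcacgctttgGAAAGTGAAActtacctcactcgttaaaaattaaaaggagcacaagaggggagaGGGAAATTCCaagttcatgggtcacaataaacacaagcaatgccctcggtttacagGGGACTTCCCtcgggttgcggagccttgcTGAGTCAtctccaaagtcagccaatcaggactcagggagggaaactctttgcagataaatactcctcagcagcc
Ccl3 (chr11:83649379-83649628, minus strand): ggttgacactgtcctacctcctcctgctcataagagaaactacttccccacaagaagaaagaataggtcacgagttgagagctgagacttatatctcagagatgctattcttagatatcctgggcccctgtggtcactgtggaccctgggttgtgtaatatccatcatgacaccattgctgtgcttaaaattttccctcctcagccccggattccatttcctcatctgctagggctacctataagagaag
Ccl9 (chr11:83578637-83578886, minus strand): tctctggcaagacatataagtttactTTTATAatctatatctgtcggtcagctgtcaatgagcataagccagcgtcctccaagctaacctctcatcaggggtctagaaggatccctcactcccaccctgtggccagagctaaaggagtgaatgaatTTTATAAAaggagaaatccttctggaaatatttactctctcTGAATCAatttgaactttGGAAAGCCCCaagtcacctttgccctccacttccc
Cxcl12 (chr6:117168285-117168534, plus strand): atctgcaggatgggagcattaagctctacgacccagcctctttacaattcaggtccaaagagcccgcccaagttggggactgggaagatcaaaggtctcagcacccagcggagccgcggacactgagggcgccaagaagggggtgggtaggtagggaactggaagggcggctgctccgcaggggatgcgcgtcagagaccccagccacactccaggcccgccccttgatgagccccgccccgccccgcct

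Cxcl1 and Cxcl2 carried the same 11-base run, in which kB matches on the plus and the minus strand overlap, starting 71 bases before the start in Cxcl1 and 97 bases before it in Cxcl2. Cxcl10 carried kB matches 159 and 103 bases before its start, an interferon-stimulated element match at 213 bases and an AP-1 match at 74 bases. In the Ccl9 window a kB match lay at 35 bases and an AP-1 match at 53 bases, with TATA matches farther out, of which those at 94 and 92 bases overlap. None of the motifs searched was found in the windows of Ccl3 and Cxcl12, which says only that these letters are not there. RefSeq windows were found for 41 members. Of these, 9 held kB (Ackr2, Ccl9, Ccl20, Ccr3, Ccr6, Cxcl1, Cxcl2, Cxcl3 and Cxcl10), 4 held AP-1, 3 held the interferon-stimulated element and 13 held TATA. Among all 32851 RefSeq windows of that length, the shares were 3.9%, 6.75%, 2.98% and 12.4%. RefSeq's starts for Cxcl2 and Ccl3 match no GENCODE M21 transcript, and the Cxcl2 window runs past the M21 gene start at position 90903871, so the distances depend on the start chosen. A match is a description of the letters and was not tested as a binding site. Members with no matched window included Ccl2, Ccl4, Ccl5, Ccl7, Ccl11, Ccl24, Ccl26, Ccr7, Ccr10, Cxcl5, Cxcl11, Cxcl16, Cxcl17 and Cxcr5.

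Levels between genes can be compared only per length, so the mean CPM was divided by the exon length in kb that GENCODE M21 gives. On that scale the homeostatic ligand Cxcl12, which holds Cxcr4-bearing cells in tissues, led the WT NC libraries at 38.0 CPM per kb, with Ccl9 next at 17.6, Cxcl1 at 6.34 and Ccl6 at 5.16. In WT CCl4 the order was different, with Ccl4 at 179.8 CPM per kb, Cxcl1 at 136, Ccl6 at 106, Cxcl2 at 104, Ccl3 at 101, Cxcl10 at 98.4, Ccl9 at 75.3 and Ccl2 at 54.3, and Cxcl12 at 14.1. In KO the order rested on KO 75. Cxcl1 led KO 72 and KO 79 at 31.2 and 32.0 CPM per kb, where Ccl9 was at 14.6 and 26.2 and Ccl6 at 8.44 and 25.5, whereas Ccl6 and Ccl9 led KO 75 at 86.9 and 82.4 with Cxcl1 at 26.5. Mean levels in KO were 18.6 CPM per kb for Cxcl12, 12.3 for Cxcl9, 5.80 for Ccl4 and 2.56 for Cxcl2. Single libraries within WT CCl4 differed by more than neighbours in this order did, so neighbours are not separated by it. Together the members took 0.0353% to 0.043% of all counts in WT NC. Their share was 0.3688%, 0.1727% and 0.0918% in WT CCl4 11, 12 and 13, and 0.0369%, 0.1044% and 0.0475% in KO 72, 75 and 79.

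**Figure D1:**
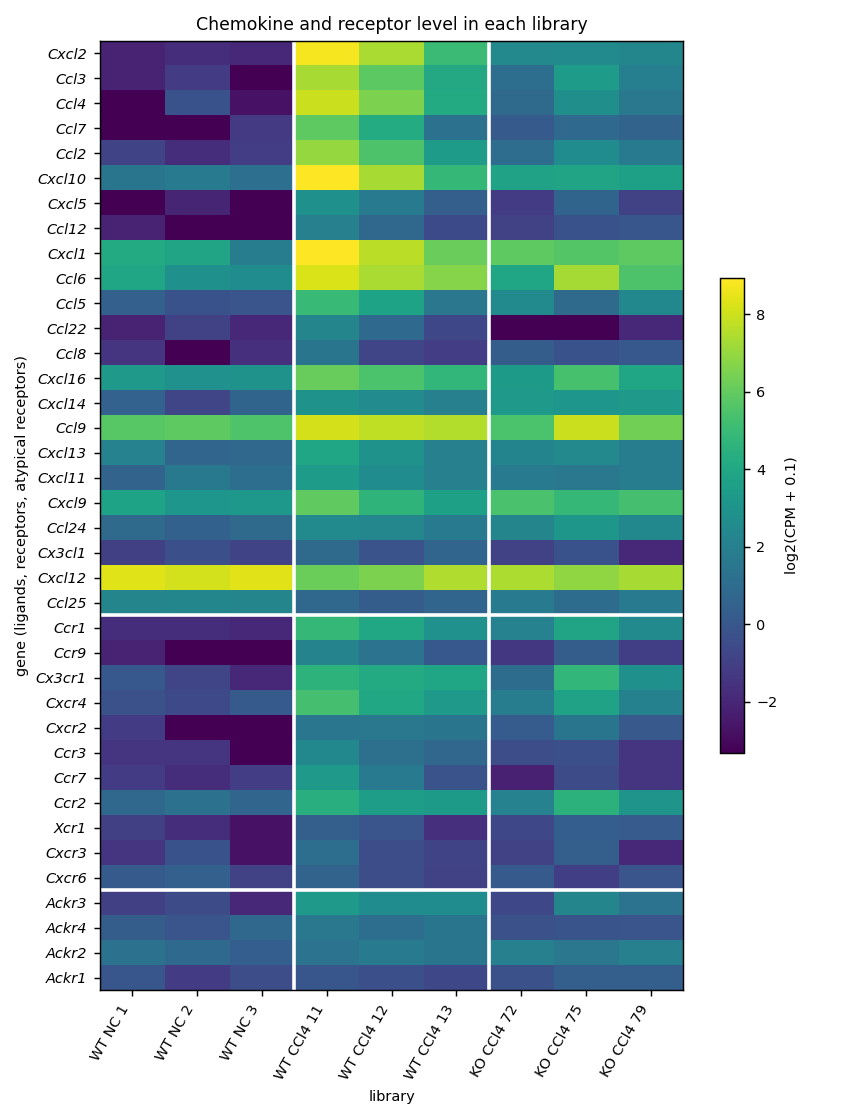
The heat map plots log2(CPM + 0.1) for 38 of the 39 tested members (rows, ordered by role and by the size of the CCl4 response in WT) in the 9 libraries (columns). Within WT CCl4 the inflammatory ligands are brightest in library 11 and faintest in 13, and among the KO libraries KO 75 stands out in rows such as Ccl6 and Cx3cr1.

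Repeated CCl4 raised most chemokines and receptors in WT liver. Of the 39 tested members 31 were called higher and 2 lower (edgeR's quasi-likelihood test, Benjamini-Hochberg adjusted p under 0.05), where 29.5% of all 14134 genes tested were called higher and 25.0% lower. The ligands Cxcl2, Ccl3, Ccl4, Ccl7 and Ccl2 had the largest rises, and of 23 ligands tested 20 rose and 2 fell. Among 12 signalling receptors 9 rose, and among the 4 atypical receptors Ackr3 and Ackr4 rose. The median log2 fold change was 3.50 over the members and 0.04 over all genes. All 3 WT CCl4 libraries lay above all 3 WT NC libraries in 31 members and below them in 2, against 34.7% and 31.6% of all genes. Cx3cl1, Cxcr3, Cxcr6, Xcr1, Ackr1 and Ackr2 were not called. Members low outside WT CCl4, such as Ccl22 and Ccr7, passed the filter on low counts through that group. For them a rise with CCl4 was favoured in advance.

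Markers of several white cells moved with the same contrast. Those of T and NK cells did so less, with 4 of 10 tested called higher with CCl4 in WT, beside 29.5% of all genes. All 14 macrophage and monocyte markers tested rose with CCl4, and their summed level was 426 to 541 CPM in WT NC, 8942, 5429 and 3527 CPM in WT CCl4 and 661, 4681 and 1427 CPM in KO. Neutrophil markers rose in 9 of 9 tested, with Ly6g, Mpo and Ngp at 0 in WT NC, and summed to 3.24 to 6.71 CPM in WT NC, 37.5 to 94.1 CPM in WT CCl4 and 25.5 to 50.1 CPM in KO. Summed exocrine pancreas markers, 5 genes such as Ctrb1 and Pnlip, reached at most 2.51 CPM in WT NC but 898, 283 and 7.79 CPM in WT CCl4 and 19.4, 134 and 37.2 CPM in KO, and the 4 mesothelium markers reached 150.4, 75.0 and 35.7 CPM in WT CCl4 and 3.58, 25.8 and 6.49 CPM in KO. Mitochondrial genes took 9.13% to 12.05% of counts in WT NC, 25.4% to 26.3% in WT CCl4 and 19.3% to 21.0% in KO, with no overlap between the groups. In bulk samples more cells of a type and more RNA per cell cannot be told apart, and the part of these markers and of the mitochondrial share in the chemokine results was not tested.

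Several of the most strongly induced ligands were lower in the KO libraries than in WT CCl4. In all, 8 of 39 members were called lower and 0 higher, where 1.61% of all genes tested were called lower and 3.46% higher. The 8 were the ligands Cxcl2, Ccl22, Ccl4, Cxcl10, Ccl2 and Ccl3, the receptor Ccr7 and the atypical receptor Ackr4. Of these, Ccl22 and Ccr7 had few counts outside WT CCl4 (11 and 15 in WT NC, 3 and 20 in KO). They passed the filter on low counts through WT CCl4, where they are high, so a call of lower in KO was favoured in advance. Other members and background genes may share this limit. At an unadjusted p under 0.05, 18 members were lower and 1 higher, beside 15.2% and 16.4% of all genes. DESeq2, run on the 52 members with any count, called 15 lower and 1 higher, beside 6.09% and 7.33% of 20604 genes with any count. Its own filter can leave genes with the lowest counts without an adjusted p, so these shares may be diluted. It added Ccl5, Ccl7, Ccr3, Cxcl1, Cxcl3, Cxcl5 and Cxcr4 to the lower ones and Ccl25 as the higher one. Calls named below are edgeR's unless DESeq2 is named. The median log2 fold change was -1.09 over the 39 members and -0.03 over all genes. Every KO library lay below every WT CCl4 library in 15 members, against 15.8% of all genes, and above them in Cxcl14 and Ccl25 alone, against 15.8%. Beside this, 0 of the 14 macrophage and monocyte markers were called between the groups (11 lower without KO 75), as were 0 of 9 neutrophil markers (3 lower without KO 75). Of 6 dendritic cell markers 1 was lower (3 without KO 75), of 9 endothelial markers 1 (6 without KO 75), of 8 stellate cell markers 0 (7 without KO 75), of 4 mesothelium markers 0 (4 without KO 75) and of 7 B cell markers 0 (5 without KO 75). Of 10 T and NK cell markers 0 were called, with or without KO 75. Of 8 hepatocyte markers 3 were higher (5 without KO 75). The mitochondrial share was 25.4% to 26.3% in WT CCl4 and 19.3% to 21.0% in KO. The part of these markers and of that share in the result was not tested.

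Leaving out KO 75 gave 24 members lower and 1 higher of 42 tested, beside 20.4% and 17.2% of all genes, and the 8 members named above were among them. The other members then called lower included Ackr3, Ccl6, Ccl7, Ccl9, Ccr1, Ccr2, Ccr3, Ccr9, Cx3cl1, Cx3cr1, Cxcl3, Cxcl5, Cxcl16, Cxcr4 and Cxcr5, and Ccl25 was called higher. Of these, Cxcl3 and Cxcr5 did not pass the filter on low counts with all libraries, and both were at 0 CPM in KO 72 and KO 79. They passed here through WT CCl4, where they are high, so a call of lower in KO was favoured in advance. In contrast, leaving out KO 72, KO 79 or WT CCl4 12 left 0 members called. Those fits called only 34, 8 and 5 genes in all, where the fit with all libraries called 489 higher and 228 lower. At an unadjusted p under 0.05, 14, 14 and 16 members were lower, with no share of all genes given for comparison. Leaving out WT CCl4 11 (36 genes called in all) or any WT NC library left Cxcl2 alone. Far fewer genes in all were called without a WT NC library, too. The loss of calls was thus not particular to these members. Without WT CCl4 13, 11 members were called lower, and about as many genes in all were called as with all libraries. Only Cxcl2 was called in 6 of the 9 fits that each leave out a library.

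**Figure D2:**
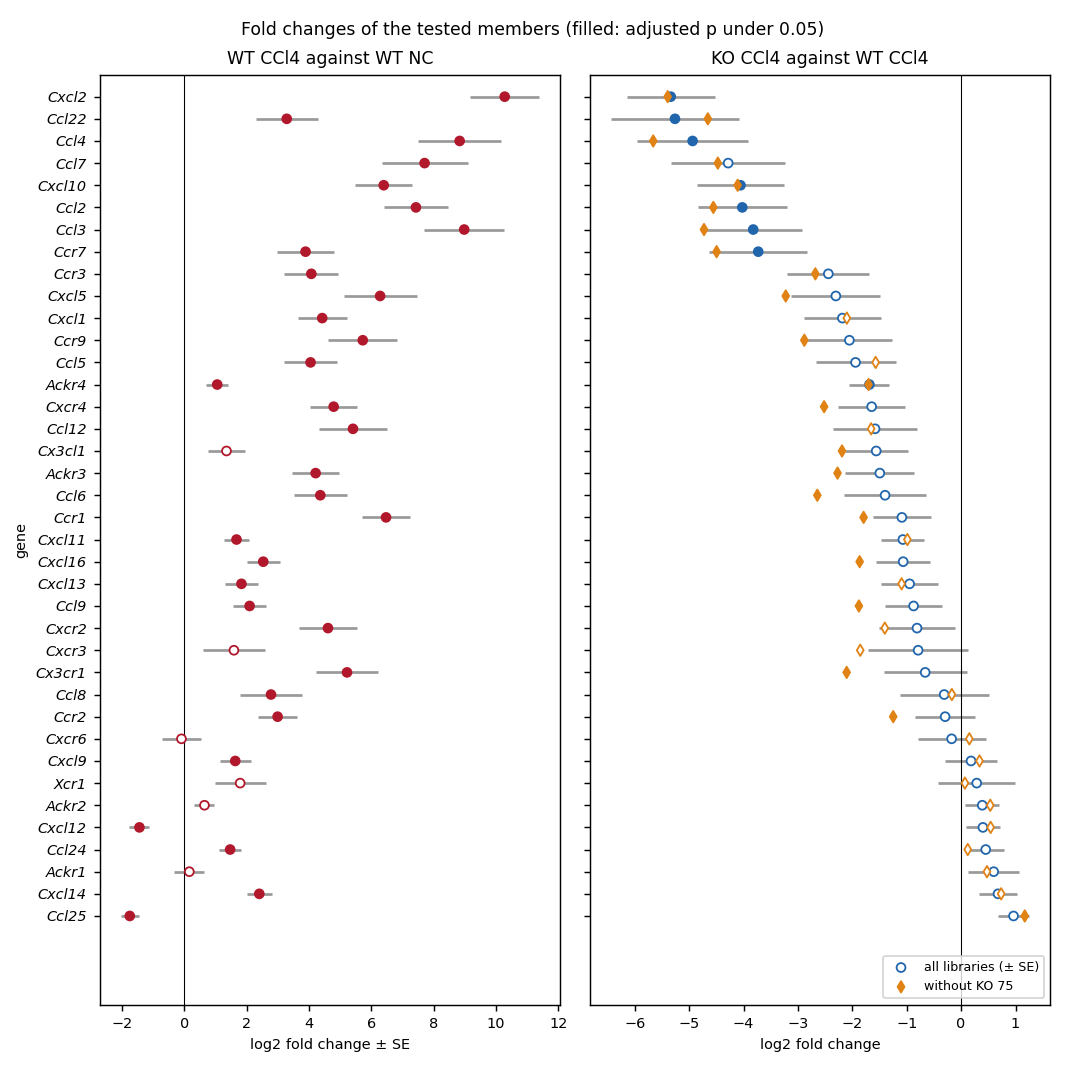
The left panel plots the log2 fold change ± SE of WT CCl4 against WT NC and the right panel that of KO against WT CCl4 for 38 of the 39 tested members, with diamonds for the fit without KO 75. Filled symbols have an adjusted p under 0.05; receptors such as Ccr1, Cx3cr1 and Ccr2 move left and become filled when KO 75 is left out, while Cxcl2 and Cxcl10 hardly move.

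The monocyte-attracting ligands of Ccr2 were among the members with the largest rises. Ccl2, the main monocyte chemokine, stood at 0.465, 0.207 and 0.373 CPM in WT NC, 129, 45.9 and 10.6 CPM in WT CCl4 and 1.97, 6.08 and 3.24 CPM in KO. Every KO library lay below every WT CCl4 library and above every WT NC library. On the log2 scale Ccl2 rose by 7.43 ± 1.03 with CCl4 in WT (SE, adjusted p = 0.00107) and was -4.02 ± 0.82 in KO against WT CCl4 (adjusted p = 0.0401, edgeR), or -4.56 without KO 75 (adjusted p = 0.00688). Ccl7, its neighbour on chromosome 11 and a further Ccr2 ligand, was at 0, 0 and 0.320 CPM in WT NC, 59.9, 18.3 and 2.26 CPM in WT CCl4 and 1.01, 1.70 and 1.37 CPM in KO. The groups with CCl4 did not overlap here either, but the KO difference of -4.28 ± 1.04 had an adjusted p of 0.0501 and so missed the threshold, and without KO 75 it passed (adjusted p = 0.022). Ccl12, a Ccr2 ligand of the mouse, was at 0.133, 0 and 0 CPM in WT NC, 4.00, 1.63 and 0.579 CPM in WT CCl4 and 0.417, 0.754 and 0.880 CPM in KO. KO and WT CCl4 overlapped, and the difference of -1.58 ± 0.78 was not called (adjusted p = 0.191).

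Ccr2, the receptor of these ligands on inflammatory monocytes, had 1.59, 2.34 and 1.49 CPM in WT NC, 21.4, 11.6 and 10.3 CPM in WT CCl4 and 4.17, 23.1 and 7.92 CPM in KO. KO 75 lay above all WT CCl4 libraries and KO 72 and KO 79 below them. The rise with CCl4 in WT was 3.00 ± 0.62 (SE, adjusted p = 0.0039), and the KO difference was -0.29 ± 0.55 with all libraries (adjusted p = 0.731) and -1.25 without KO 75 (adjusted p = 0.0367). Ligand and receptor thus parted in KO 75, where Ccl2 was below the lowest WT CCl4 library while Ccr2 was above the highest.

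Macrophages make several inflammatory ligands of the CC family. Ccl3, a ligand of Ccr1, was at 0.133, 0.345 and 0 CPM in WT NC, 159.8, 56.7 and 16.7 CPM in WT CCl4 and 2.03, 10.5 and 3.79 CPM in KO. Ccl4, which attracts macrophages and T cells, was at 0, 0.758 and 0.0533 CPM in WT NC, 247, 90.9 and 17.6 CPM in WT CCl4 and 1.79, 6.83 and 2.86 CPM in KO. In both genes the highest KO library was KO 75, and it stayed below the lowest WT CCl4 library. The KO difference was -3.82 ± 0.89 for Ccl3 (adjusted p = 0.0479) and -4.94 ± 1.03 for Ccl4 (adjusted p = 0.0417), by edgeR's test. Ccl5, which T cells and macrophages make, was at 1.26, 0.758 and 0.853 CPM in WT NC, 31.5, 13.5 and 2.84 CPM in WT CCl4 and 5.60, 1.79 and 5.11 CPM in KO. Here KO 75 was the lowest KO library and KO 72 and KO 79 lay inside the WT CCl4 range, and the KO difference of -1.94 ± 0.74 was not called (adjusted p = 0.115).

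Ccl6 and Ccl9, rodent ligands of Ccr1 made by macrophages, followed another order. Ccl6 was at 14.6, 7.10 and 6.08 CPM in WT NC, 300.0, 169 and 103 CPM in WT CCl4 and 15.1, 156 and 45.7 CPM in KO. Ccl9, which was abundant without CCl4, was at 53.0, 60.1 and 47.7 CPM in WT NC, 284, 220.3 and 184 CPM in WT CCl4 and 44.6, 251 and 79.8 CPM in KO. KO 72 lay below every WT NC library in Ccl9, whereas KO 75 lay inside the WT CCl4 range in both genes. Neither KO difference was called with all libraries (adjusted p = 0.223 and 0.268), and without KO 75 both were, at -2.64 for Ccl6 (adjusted p = 0.011) and -1.88 for Ccl9 (adjusted p = 0.002).

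The receptor Ccr1, carried by monocytes and neutrophils, rose steeply in WT. It was at 0.199, 0.207 and 0.160 CPM in WT NC, 28.4, 15.8 and 7.37 CPM in WT CCl4 and 4.17, 14.3 and 5.72 CPM in KO. Its rise of 6.47 ± 0.77 (SE, adjusted p = 0.000642) was the largest among the receptors tested. KO 75 lay inside the WT CCl4 range, while KO 72 and KO 79 were below it. The KO difference was -1.09 ± 0.53 with all libraries and not called (adjusted p = 0.192), and without KO 75 it was -1.79 (adjusted p = 0.0202).

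Among the neutrophil-attracting ligands of Cxcr2, edgeR with all libraries called Cxcl2 lower in KO, and DESeq2 called Cxcl1, Cxcl2, Cxcl3 and Cxcl5. Cxcl2 was nearly silent in WT NC and stood at 0.133, 0.207 and 0.160 CPM in WT NC, 442, 169 and 32.3 CPM in WT CCl4 and 5.37, 5.70 and 4.78 CPM in KO. No KO library reached 32.3 CPM, the lowest WT CCl4 value, and the KO values were within 1 CPM of each other. Cxcl2 rose by 10.28 ± 1.11 with CCl4 in WT (SE, adjusted p = 0.000494), and its difference of -5.34 ± 0.81 in KO (adjusted p = 0.0201) was the largest fitted difference among the 39 tested members. Cxcl1, beside it on chromosome 5, was at 18.0, 14.2 and 3.47 CPM in WT NC, 489.9, 204 and 69.7 CPM in WT CCl4 and 58.5, 49.8 and 59.9 CPM in KO. All KO libraries lay below all WT CCl4 libraries, yet close to WT CCl4 13, and the difference of -2.18 ± 0.70 was not called (adjusted p = 0.0815, and 0.0707 without KO 75). Cxcl5 was at 0, 0.138 and 0 CPM in WT NC, 6.93, 3.26 and 1.21 CPM in WT CCl4 and 0.358, 1.46 and 0.440 CPM in KO. KO 75 lay inside the WT CCl4 range and KO 72 and KO 79 below it, and the edgeR difference was -2.30 ± 0.82 with KO 75 (adjusted p = 0.1) and -3.23 without (adjusted p = 0.0196).

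Cxcl3, of the same chromosome 5 cluster, did not pass the filter on low counts. It had 3 counts in WT NC, 268 counts in WT CCl4 (10.6, 2.77 and 0.105 CPM) and 0 counts in KO, where the floor of 3 counts over the group makes it at least 85.0-fold lower than in WT CCl4. The WT CCl4 level was 73.1 times that of WT NC (exact 95% interval 24.8 to 357, counting error only). Cxcr2, the neutrophil receptor, was at 0.332, 0 and 0 CPM in WT NC, 2.73, 2.86 and 2.63 CPM in WT CCl4 and 1.07, 2.59 and 0.990 CPM in KO. The WT CCl4 libraries lay close together, KO 75 just below them and KO 72 and KO 79 farther below. The rise in WT was 4.61 ± 0.94 (SE, adjusted p = 0.00358), and the KO difference of -0.81 ± 0.70 was not called (adjusted p = 0.437, and 0.149 without KO 75).

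The interferon-inducible ligands of Cxcr3, which attract activated T cells, lie side by side on chromosome 5, and Cxcl10 was the one called lower in KO. Cxcl10 was at 2.59, 3.17 and 2.13 CPM in WT NC, 475, 161 and 29.1 CPM in WT CCl4 and 13.4, 14.3 and 12.3 CPM in KO. KO values lay between the other groups with no overlap, and they differed by -4.06 ± 0.81 from WT CCl4 (adjusted p = 0.0387), or -4.11 without KO 75 (adjusted p = 0.0112). Cxcl9 was at 13.6, 8.55 and 9.33 CPM in WT NC, 60.5, 25.2 and 12.3 CPM in WT CCl4 and 43.2, 28.8 and 39.3 CPM in KO. Its KO values lay within the WT CCl4 range, and the KO difference was 0.18 ± 0.48 (adjusted p = 0.812). Cxcl11, whose C57BL/6 copy is known to carry a frameshift, was at 1.40, 2.96 and 2.03 CPM in WT NC, 10.4, 6.12 and 3.90 CPM in WT CCl4 and 3.28, 2.88 and 3.57 CPM in KO. All KO libraries lay below all WT CCl4 libraries, and the difference of -1.07 ± 0.39 was not called (adjusted p = 0.109). Cxcr3 itself was scarce, at 0.266, 0.758 and 0.0533 CPM in WT NC, 2.07, 0.642 and 0.474 CPM in WT CCl4 and 0.417, 1.23 and 0.165 CPM in KO. Its libraries overlapped between all groups, and it was not called in either comparison (adjusted p = 0.198 with CCl4 in WT, and 0.568 in KO against WT CCl4).

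Ratios of ligands of the same cluster within a library, chosen after their values were seen and so not tested, do not depend on library size. Cxcl10 over Cxcl9 was 0.190, 0.371 and 0.229 in WT NC, 7.84, 6.40 and 2.37 in WT CCl4 and 0.309, 0.498 and 0.312 in KO. Cxcl2 over Cxcl1 was 0.00738, 0.0146 and 0.0462 in WT NC, 0.903, 0.824 and 0.464 in WT CCl4 and 0.0916, 0.115 and 0.0798 in KO. Ccl3 over Ccl9 was 0.562, 0.258 and 0.0909 in WT CCl4 and 0.0455, 0.0419 and 0.0476 in KO. In each of these 3 ratios the KO libraries, KO 75 included, lay together and below every WT CCl4 library.

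**Figure D3:**
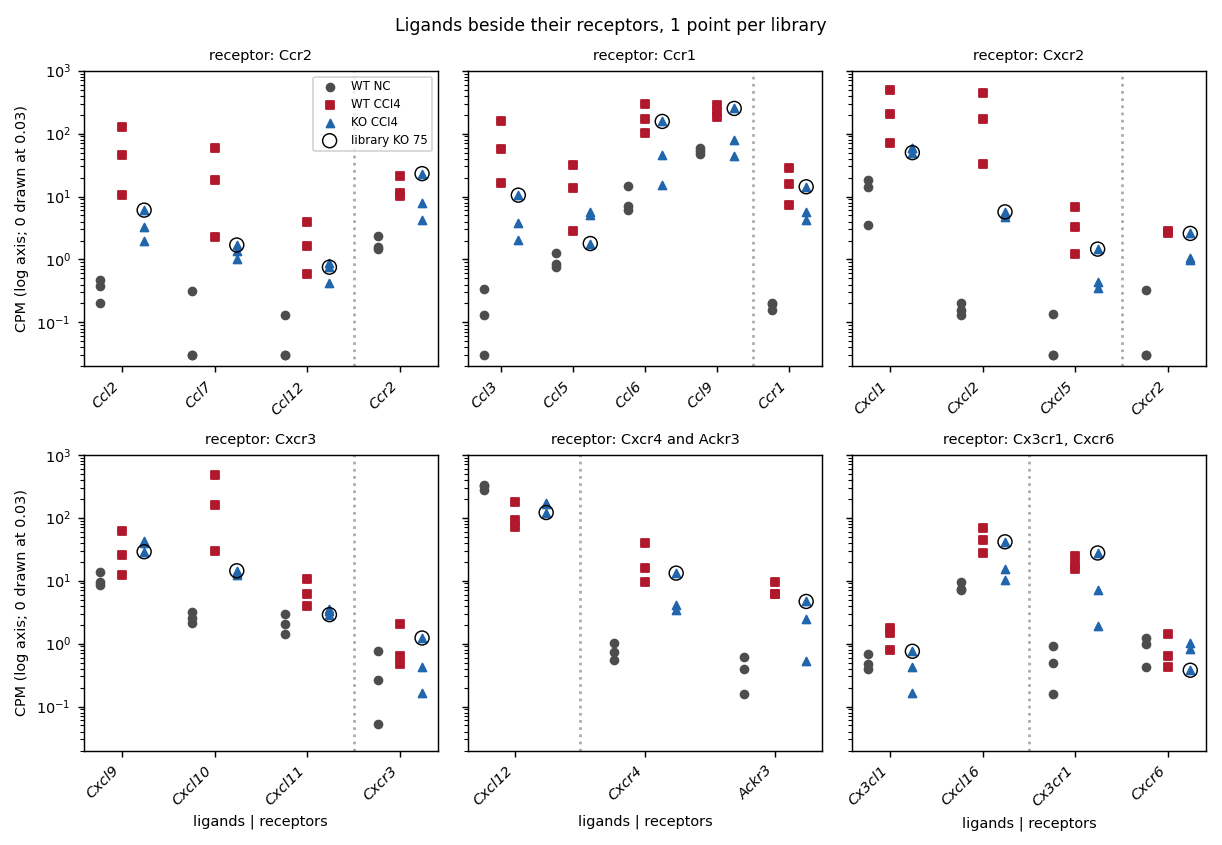
Each panel plots CPM per library on a log axis for ligands (left of the dotted line) and the receptors they bind, with WT NC as grey circles, WT CCl4 as red squares and KO as blue triangles, and KO 75 ringed. The ringed library lies above the WT CCl4 range for Ccr2 and Cx3cr1 and below it for Ccl2, Cxcl2 and Cxcl10.

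Cxcl12 fell where the inflammatory ligands rose. Its CPM were 324, 278 and 330.0 in WT NC, 72.1, 92.7 and 180.0 in WT CCl4 and 171, 121 and 163 in KO. Every WT NC library was above every library with CCl4, and the fall with CCl4 in WT was -1.44 ± 0.32 (SE, adjusted p = 0.00541). KO and WT CCl4 overlapped (log2 difference 0.40 ± 0.32, adjusted p = 0.392). Its signalling receptor Cxcr4 rose and was at 0.731, 0.552 and 1.01 CPM in WT NC, 39.6, 16.0 and 9.42 CPM in WT CCl4 and 3.46, 13.2 and 4.07 CPM in KO, with a log2 fold change of 4.79 ± 0.75 (SE, adjusted p = 0.00138). KO 75 lay inside the WT CCl4 range and the other KO libraries below it, and the difference from WT CCl4 was -1.64 ± 0.62 (adjusted p = 0.113), or -2.52 without KO 75 (adjusted p = 0.00922). Ackr3, the atypical receptor that takes Cxcl12 up, was at 0.399, 0.621 and 0.160 CPM in WT NC, 9.36, 6.22 and 6.11 CPM in WT CCl4 and 0.537, 4.67 and 2.42 CPM in KO. Every KO library lay below every WT CCl4 library, and the edgeR adjusted p of the KO difference was 0.145 with KO 75 and 0.0183 without.

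The ligands Cx3cl1 and Cxcl16 are made as membrane-bound proteins. Cx3cl1 was scarce at 0.399, 0.690 and 0.480 CPM in WT NC, 1.77, 0.790 and 1.47 CPM in WT CCl4 and 0.417, 0.754 and 0.165 CPM in KO, and it was not called with CCl4 in WT (1.36 ± 0.58, SE, adjusted p = 0.0752). Cx3cr1, its receptor on monocytes and macrophages, was at 0.930, 0.483 and 0.160 CPM in WT NC, 24.5, 18.0 and 15.3 CPM in WT CCl4 and 1.91, 27.5 and 6.98 CPM in KO and rose by 5.22 ± 0.99 (SE, adjusted p = 0.00272). KO 75 had the highest Cx3cr1 of the 9 libraries and KO 72 the lowest of those with CCl4, and the KO difference was -0.66 ± 0.76 with all libraries (adjusted p = 0.563) and -2.10 without KO 75 (adjusted p = 0.0194). Cxcl16, a ligand that macrophages and endothelium carry, was at 9.57, 7.17 and 7.47 CPM in WT NC, 68.7, 44.0 and 27.7 CPM in WT CCl4 and 10.3, 41.3 and 15.3 CPM in KO and rose by 2.54 ± 0.52 (SE, adjusted p = 0.00387). KO 75 lay inside the WT CCl4 range and the other KO libraries below it, and the KO difference was -1.07 ± 0.50 with KO 75 (adjusted p = 0.173) and -1.87 without (adjusted p = 0.00571). Its receptor Cxcr6, found on liver-resident T and NKT cells, was at 0.997, 1.24 and 0.427 CPM in WT NC, 1.42, 0.642 and 0.421 CPM in WT CCl4 and 1.01, 0.377 and 0.825 CPM in KO. The groups overlapped in Cxcr6, and no comparison called it.

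Homing ligands and receptors were mostly low. Ccl25, which homes cells to gut and thymus, was at 4.65, 4.83 and 4.75 CPM in WT NC, 1.62, 1.14 and 1.47 CPM in WT CCl4 and 3.16, 1.93 and 3.19 CPM in KO. Without overlap, WT NC was highest, KO next and WT CCl4 lowest: the fall with CCl4 in WT was -1.75 ± 0.29 (SE, adjusted p = 0.00175), and the KO difference was 0.96 ± 0.29 (edgeR adjusted p = 0.0741 with KO 75 and 0.0107 without; DESeq2 called it with all libraries). Ccr9, its receptor, was at 0.133, 0 and 0 CPM in WT NC, 4.35, 2.42 and 0.948 CPM in WT CCl4 and 0.298, 1.13 and 0.385 CPM in KO, and KO 72 and KO 79 lay below the WT CCl4 range. Ccr7, which leads dendritic cells to lymph nodes, was at 0.332, 0.207 and 0.373 CPM in WT NC, 9.87, 3.31 and 0.790 CPM in WT CCl4 and 0.119, 0.613 and 0.275 CPM in KO. Every KO library lay below every WT CCl4 library, with KO 79 inside the WT NC range and KO 72 below it, and the KO difference was -3.73 ± 0.90 (adjusted p = 0.0496), or -4.50 without KO 75 (adjusted p = 0.0128). Of its ligands Ccl19 had 0 counts in every library, as did the copies of Ccl21, and since both genes have near-identical copies in the mouse genome these counts are uncertain.

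Ccl22, a ligand of Ccr4 that dendritic cells and macrophages make, was at 0.133, 0.414 and 0.160 CPM in WT NC, 4.71, 1.73 and 0.526 CPM in WT CCl4 and 0, 0 and 0.165 CPM in KO. Its 3 counts in KO, all in KO 79, stood against 138 counts in WT CCl4, a ratio of 43.8 (exact 95% interval 14.7 to 215, counting error only), and the adjusted p was 0.0464 (edgeR). Ccr3, the eotaxin receptor of eosinophils, was at 0.266, 0.276 and 0 CPM in WT NC, 5.26, 2.22 and 1.53 CPM in WT CCl4 and 0.656, 0.707 and 0.275 CPM in KO, with every KO library below every WT CCl4 library and an adjusted p of 0.0755. Its ligand Ccl24 was at 1.79, 1.31 and 1.81 CPM in WT NC, 5.57, 5.04 and 3.11 CPM in WT CCl4 and 4.71, 8.81 and 5.22 CPM in KO and overlapped between the groups with CCl4. Xcr1, a receptor of cross-presenting dendritic cells, was at 0.399, 0.207 and 0.0533 CPM in WT NC, 1.21, 0.840 and 0.211 CPM in WT CCl4 and 0.537, 1.18 and 1.04 CPM in KO, and no comparison called it.

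Atypical receptors take up chemokines without the usual signal. Ackr4, which removes Ccl19, Ccl21 and Ccl25, was at 1.13, 0.827 and 1.65 CPM in WT NC, 2.93, 2.07 and 2.58 CPM in WT CCl4 and 0.715, 0.801 and 0.825 CPM in KO. All KO libraries lay below all others, KO 79 only just below WT NC 2, and KO 75 stood with KO 72 and KO 79. The log2 difference from WT CCl4 was -1.69 ± 0.37 (adjusted p = 0.0451, and 0.0147 without KO 75), and that from WT NC was -0.63 ± 0.37 (adjusted p = 0.241). Ackr2, which clears inflammatory CC chemokines, was at 2.33, 1.72 and 1.17 CPM in WT NC, 2.48, 3.06 and 2.63 CPM in WT CCl4 and 3.93, 2.83 and 3.96 CPM in KO, and KO against WT NC was 1.04 ± 0.32 (SE, adjusted p = 0.0459). Ackr1, which carries chemokines across venous endothelium, was at 0.864, 0.345 and 0.640 CPM in WT NC, 0.860, 0.691 and 0.526 CPM in WT CCl4 and 0.715, 1.23 and 1.21 CPM in KO and overlapped between all groups. Ackr1 and Ackr4 share exon bases with a neighbouring gene in GENCODE M21, as do Ccl25, Ccr9, Cx3cr1, Cxcl10, Cxcl11, Cxcl16, Cxcr5 and Xcl1, so their counts are uncertain to that extent, the strand setting of the counting not being known.

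Remaining tested members were ligands. Ccl8, a monocyte chemokine of the Ccl2 cluster, was at 0.266, 0 and 0.213 CPM in WT NC, 2.63, 0.494 and 0.369 CPM in WT CCl4 and 1.13, 0.754 and 0.935 CPM in KO. Cxcl13, which organises B cell follicles, was at 4.19, 1.52 and 1.60 CPM in WT NC, 14.6, 7.51 and 3.95 CPM in WT CCl4 and 4.59, 5.37 and 3.52 CPM in KO. Cxcl14, a ligand with no settled receptor, was at 1.33, 0.483 and 1.44 CPM in WT NC, 7.59, 5.98 and 3.95 CPM in WT CCl4 and 9.48, 8.63 and 9.95 CPM in KO. Each rose with CCl4 in WT, with adjusted p-values of 0.0376, 0.0179 and 0.0016. Cxcl14 was among the few members whose KO libraries all lay above WT CCl4, and its difference of 0.68 ± 0.36 was not called (adjusted p = 0.215).

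Paired by known binding, 33 ligand and receptor pairs were listed, and in 22 of them both genes were tested. With CCl4 in WT both genes rose in 14 pairs. In KO against WT CCl4 with all libraries, both genes were lower in 0 pairs. The ligand was lower and the receptor not called in 6 pairs, and neither was called in 16. The 6 pairs with the ligand lower included Ccl2 with Ccr2, Ccl3 with Ccr1, Cxcl2 with Cxcr2 and Cxcl10 with Cxcr3. The receptors called lower with all libraries, Ccr7 and Ackr4, were in no pair with both genes tested. Without KO 75 the pairs were not recounted, but both genes were then called lower in Ccl2 with Ccr2 and Ccl3 with Ccr1. In Cxcl2 with Cxcr2 and Cxcl10 with Cxcr3 the receptor was still not called. A receptor not called is not shown to be equal in both groups, and the difference between a ligand's change and its receptor's was not tested. Pairs share genes, so they are not independent counts.

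Against WT NC, the KO libraries still held more of many members. Of 39 tested, 18 were called higher and 1, Cxcl12, lower, beside 14.0% and 8.98% of all genes. Signalling receptors made up 7 of the 18, among them Ccr1 with a log2 fold change of 5.38 ± 0.76 (SE, adjusted p = 0.00319), Cx3cr1 with 4.56 ± 0.98 (adjusted p = 0.014) and Cxcr4 with 3.15 ± 0.72 (adjusted p = 0.0178). Ligands called higher included Cxcl2 with 4.94 ± 1.06 (adjusted p = 0.0142), Cxcl14 with 3.09 ± 0.40 (adjusted p = 0.00221), Ccl24 with 1.93 ± 0.35 (adjusted p = 0.00787) and Cxcl9 with 1.82 ± 0.50 (adjusted p = 0.0322). Every KO library lay above every WT NC library in 25 members, against 23.3% of all genes, and below them in Ackr4, Ccl25 and Cxcl12, against 21.4%. In 7 pairs both genes were higher than in WT NC. Without KO 75, 11 members were called higher (beside 9.93% of all genes), among them Ccr1, Ccr2, Cx3cr1, Cxcr2, Cxcr4, Cxcl2, Cxcl9 and Cxcl14, and 0 were called lower, with 2 lower at an unadjusted p under 0.05. The members called in either direction numbered 5, 3 and 3 when WT NC 1, 2 or 3 was left out, 12 without WT CCl4 12 and 11 without KO 79. Each of those fits also called fewer genes in all than the fit with all libraries, which called 1978 higher and 1269 lower. This comparison and the others share libraries.

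Libraries within the groups with CCl4 were far from alike for these genes. Among the 31 members raised in WT, WT CCl4 11 was highest, 12 next and 13 lowest in 29 members, beside 57.9% of the raised genes in all. WT CCl4 11 over WT CCl4 13 had a median of 4.20 over the raised members, 1.45 over all raised genes and 0.987 over all genes tested, and it was 26.4 for Ccl7, 16.3 for Cxcl10 and 13.7 for Cxcl2. Summed macrophage, exocrine pancreas and mesothelium markers had the same highest and lowest library, and their part in the result was not tested.

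KO 75 differed from KO 72 and KO 79 in some members and not in others. Its CPM over the mean of the other KO libraries was 6.18 for Cx3cr1, 5.13 for Ccl6, 4.03 for Ccl9 and 3.82 for Ccr2, with a median of 2.33 over the 31 raised members, 1.87 over all raised genes and 1.03 over all genes tested. By role the median was 3.16 over 11 raised receptors and 1.24 over 20 raised ligands. It was 1.12 for both Cxcl2 and Cxcl10, 0.84 for Cxcl1 and 0.334 for Ccl5. In 16 of the 31 raised members KO 75 lay at or above the lowest WT CCl4 library, beside 59.8% of all raised genes, and in 14 all KO libraries lay below every WT CCl4 library, beside 36.9%. Both shares are near the background. KO 72 and KO 79 lay below every WT CCl4 library in 24 of the 31, beside 80.0%. Summed macrophage, exocrine pancreas and mesothelium markers were also highest in KO 75 among the KO libraries, and their part in the result was not tested.

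**Figure D4:**
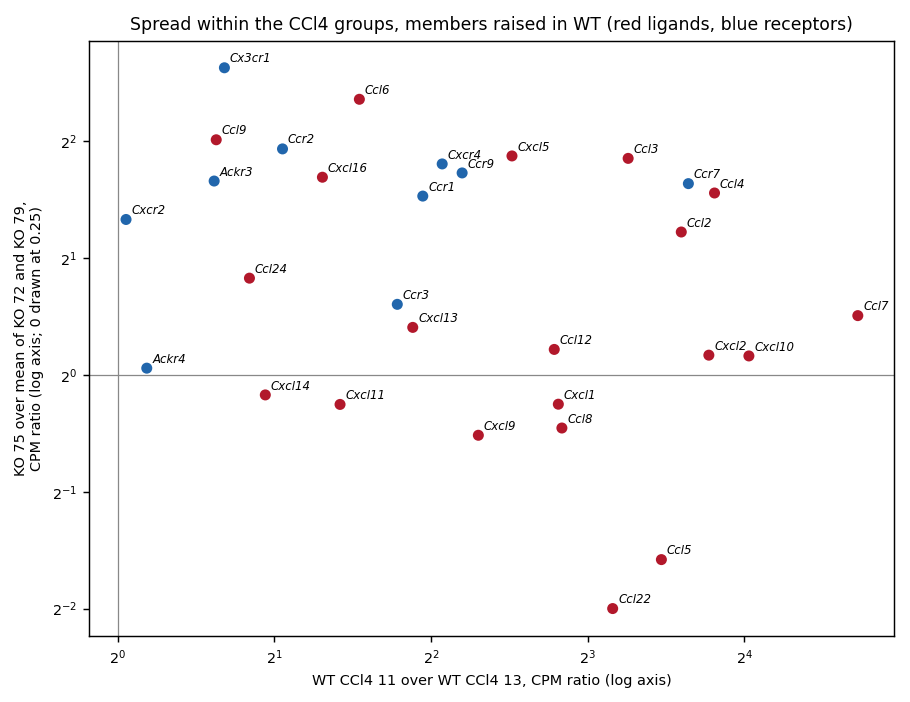
The points are 30 of the 31 members raised by CCl4 in WT, with the ratio of WT CCl4 11 to WT CCl4 13 on the horizontal axis and the ratio of KO 75 to the mean of KO 72 and KO 79 on the vertical axis, both logarithmic, ligands in red and receptors in blue. Cxcl2 and Cxcl10 have a wide spread in WT CCl4 and a KO ratio of 1.12, whereas Cx3cr1 and Ccl9 show the opposite; Ccl22, at 0 in KO 75, is drawn at the lower edge.

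Genes around the chemokine system were described from lists chosen with these data known. Of 19 upstream cytokines and sensors tested, 14 rose with CCl4 in WT, beside 29.5% of all genes, and 7 were lower in KO against WT CCl4 (1.61%), or 12 without KO 75 (20.4%). Tnf, a cytokine that induces many chemokines, was at 0.0664, 0 and 0 CPM in WT NC, 366, 134 and 24.2 CPM in WT CCl4 and 0.715, 0.990 and 1.04 CPM in KO. The KO values of Tnf lay between the other groups without overlap, at -7.56 ± 0.98 against WT CCl4 (adjusted p = 0.0135, edgeR). Il1b, another such cytokine, was at 7.91, 7.52 and 4.37 CPM in WT NC, 246, 93.0 and 21.2 CPM in WT CCl4 and 23.5, 21.5 and 24.4 CPM in KO. KO values of Il1b lay at or just above WT CCl4 13, and the difference of -2.38 ± 0.69 was not called (adjusted p = 0.0669, and 0.049 without KO 75). The median log2 fold change of that list in KO against WT CCl4 was -2.38, beside -0.03 over all genes.

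Of 31 genes of signalling below the receptors, 21 rose with CCl4 in WT (29.5% of all genes did), and 2 were lower in KO (1.61% of all genes), Elmo1 and Tiam1, both activators of Rac, the switch of cell movement. Without KO 75 the counts were 19 lower and 1 higher, beside 20.4% and 17.2% of all genes. Among 19 proteins that cut or hold chemokines, 12 rose and 2 fell with CCl4, beside 29.5% and 25.0%. In KO 1 was lower and 1 higher, or 8 lower and 4 higher without KO 75, beside the same shares of all genes as above. In KO the macrophage elastase Mmp12, which cuts chemokines, was lower (-3.93 ± 0.90, adjusted p = 0.0471) and the syndecan Sdc1, which binds them at the cell surface, higher (1.16 ± 0.27, adjusted p = 0.0473). Chemokine genes that the symbol rule leaves out had 8 tested, of which 4 rose (Ccrl2, Pf4, Cmklr1 and Cd74) and 3 fell (Mif, Rarres2 and Ccl27a) in WT. Ccrl2, a receptor-like protein that presents chemerin, was at 1.66, 0.621 and 1.07 CPM in WT NC, 275, 105 and 28.1 CPM in WT CCl4 and 6.26, 10.8 and 7.09 CPM in KO. The groups did not overlap, and it was lower in KO against WT CCl4 (-4.07 ± 0.73, adjusted p = 0.0331), the 1 call of that list with all libraries. Without KO 75 the calls were 3 lower (Ccrl2, Pf4 and Cmklr1) and 2 higher (Mif and Ccl27a).

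Members that did not pass the filter numbered 17. Ccl1, Ccl19, Ccl26 and Cxcl15 had 0 counts in all libraries. With 3 counts as the limit this allows up to 0.147 to 0.182 CPM per library, on library totals without TMM scaling. Over the 9 libraries Cxcl3 had 271 counts, Cxcr5, the B cell follicle receptor, 84, Xcl1, the ligand of Xcr1, 55, Ccl28 23, Ccr8 17, Ccr4 12, Ccr10 11, Ccl20 11, Ccr6 10, Cxcr1 6, Ccl11 5, Ccl17 2 and Cxcl17 1. Cxcr5 was at 0.266, 0.483 and 0.107 CPM in WT NC, 2.13, 0.691 and 0.369 CPM in WT CCl4 and 0, 0.377 and 0 CPM in KO. Ccr4, Ccr6 and Ccr10, the receptors paired here with Ccl22, Ccl20 and Ccl28, were thus at or near the limit of detection at this depth. Their absence is not shown.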

How the data were processed

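Messenger RNA libraries of 9 mouse liver samples were analysed from the table the authors deposited. It holds read counts and FPKM (fragments per kb of exon and per 1000000 reads) per gene and library. Alignment named HISAT2 2.0.4 and StringTie 1.3.0 with mm10 and GRCm38.p4, per the submitters' processing notes, with no role or order given. Not given in the sources used here are the counting tool, its strand setting, its handling of reads that match several places and the gene lengths behind the deposited FPKM. For some short genes those lengths exceed the gene, so levels between genes use counts per kb of GENCODE M21 exon. Of 34745 genes, 14141 had no count, and 27 symbols altered to dates in the table were restored from their IDs.

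The deposited counts were tested with edgeR 4.0.16 in R 4.3.3, using filterByExpr, TMM scaling and the quasi-likelihood test in 1 fit over the 9 libraries, with Benjamini-Hochberg adjustment over all 14134 genes tested and a threshold of 0.05. CPM use the TMM-scaled library totals. The SE given with edgeR values was worked back from the test, as the absolute log2 fold change over the square root of the F statistic. It is not a standard error reported by the fit. The fit was checked on simulated counts. Alternatives were DESeq2 1.42.0, DESeq2 size factors in edgeR, no filter, limma 3.58.1 on log2(FPKM + 1) and log2(FPKM + 0.1), the 6 libraries compared alone and each library left out. Figures and tables were made with Python 3.11.15.

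Members follow a symbol rule, and they, the pathway lists, the cell markers and the pairs were chosen with earlier results of these data known. Values per library are given for the members called in KO against WT CCl4, the 12 with the highest mean CPM in WT CCl4, tested receptors and tested pairs, and the other tested members were added after their values were seen. For 1 member counted in the totals, values of its own are not reported here. The labels do not say whether replicates are separate animals, and all p-values then reflect library-to-library spread that may be technical. Intervals at the 95% level and the floor of 3 counts (0.147 to 0.182 CPM on library totals without TMM scaling) cover counting error only.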

Additional observations from a re-analysis of the deposited data

How the results depend on the processing

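The 33 members called with CCl4 in WT ranged from 28 to 36 when each library was left out and stayed within 1.5 times of 33 under every alternative run. In KO against WT CCl4, the 8 members called became 16 with DESeq2, 5 with limma on log2(FPKM + 1), 2 on log2(FPKM + 0.1), 2 with limma and no filter on FPKM, and 0 in the 6 libraries alone (edgeR, with 15 lower and 2 higher at an unadjusted p under 0.05). Members tested numbered 52 with DESeq2 and with limma and no filter, 24 in the other limma fits and 39 in the 6 libraries. Calls over all genes moved too. With all libraries edgeR called 489 genes higher and 228 lower, DESeq2 1511 and 1255, and edgeR in the 6 libraries 30 in all. Limma called fewer than edgeR in each fit, only slightly so on log2(FPKM + 1). Leaving out each library gave 0 to 25, and the fits with 0 members called only 34, 8 and 5 genes in all. For KO against WT NC the 19 members called became 6 with limma on log2(FPKM + 1) and 3 with limma and no filter, and leaving out each library gave 3 to 23, with 5, 3 and 3 without WT NC 1, 2 and 3. Members tested numbered 24 and 52 in those limma fits and 42 without a WT NC library. Each of those fits called fewer genes in all than edgeR with all libraries, which called 1978 higher and 1269 lower. Fewer libraries or genes enter some of these fits, and beyond that the cause was not tested. No paired analysis was possible because the replicate numbers (1 to 3, 11 to 13 and 72, 75 and 79) are not shared between groups.

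Directions turned only in members not called in that comparison with all libraries, and apart from Cxcr6 (0.0715 with limma and no filter on FPKM, CCl4 against NC in WT) only when a library was left out. Over the 9 such fits the log2 fold change with CCl4 in WT ran for Ackr1 from -0.12 to 0.47, Cxcr6 from -0.71 to 0.23. In KO against WT CCl4 it ran for Ccl8 from -0.73 to 1.11, Ccr2 from -1.25 to 0.11, Cxcl9 from -0.21 to 0.98, Cxcr3 from -1.85 to 0.13, Cxcr6 from -0.48 to 0.46, Xcr1 from -0.15 to 0.80. Against WT NC it ran for Ccr7 from -0.61 to 0.54, Cx3cl1 from -0.83 to 0.18, Cxcr3 from -0.25 to 1.95, Cxcr6 from -0.61 to 0.067. With 3 libraries a group and the spread seen within WT CCl4, a receptor not called may still differ, and members under about 1 CPM rest on few counts.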
